A study of Rattus norvegicus with 12 samples.

Results

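The C/EBP transcription factors (CCAAT/enhancer-binding proteins) are described here through 4 genes, Cebpa, Cebpb, Cebpd and Cebpg, out of 32883 genes in the count table. They were chosen by symbol as members of 1 protein family. Cebpa had been noted for its high level in K815R, so its K815R values are a description and carry no test. All 4 passed the filter on low counts, as did 14063 genes in all. Each is a single row of the table: Cebpa ENSRNOG00000010918, Cebpb ENSRNOG00000057347, Cebpd ENSRNOG00000050869 and Cebpg ENSRNOG00000021144.

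C/EBP proteins are basic leucine zipper factors, which bind DNA as pairs, with each other or with related factors such as ATF4. C/EBP-alpha is best known for halting division and driving terminal differentiation in fat, liver and myeloid cells. C/EBP-beta and C/EBP-delta are induced by cytokines, glucocorticoids and stress and switch on acute phase and inflammatory genes, and in the heart a lower level of C/EBP-beta has been tied to exercise-type growth of muscle cells. C/EBP-gamma lacks an activation domain of its own and acts mostly as a partner, for instance of ATF4 in the response to amino acid shortage.

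The cells were ventricular cardiomyocytes taken from newborn rats. Every group, the control included, had received an adenovirus for 2 days. The virus carried LacZ (a bacterial enzyme gene, the control) or human KAT6A, a histone acetyltransferase, as wild type (WT), as the acetylation-resistant mutant K815R or as the acetylation-mimetic mutant K815Q. Each group had 3 libraries, with 19102048 to 25451686 gene counts per library. The labels do not say whether the 3 came from separate cultures or animals, so p-values measure the spread between these libraries, which may be technical. Levels are CPM, counts per 1e+06 gene counts after scaling between libraries, and a gene was called where its adjusted p was below 0.05. CPM are not corrected for gene length, so different genes are not ranked by level.

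The row of the rat gene Kat6a was used to check the labels. Reads of the human virus gene count in it only where they align to the rat genome, and they were not separated from rat reads. Kat6a ranged from 45.2 to 53.6 CPM in LacZ, from 82.0 to 106 in WT, from 101 to 122 in K815R, and from 43.4 to 49.97 in the K815Q-labelled libraries. The last did not stand above LacZ, so that group is called K815Q-labelled throughout, and a direction given for it relies on the label. Cardiomyocyte markers were high in every library (9 genes, summing to 39880 to 45620 CPM). Their sums in K815R (44180 to 45620 CPM) lay above those of all other libraries (at most 43240). Not every marker shared this. Nppa averaged 13530 CPM in K815R and 11040 to 11570 in the other groups, and Myh7 5066 and 3645 to 4061. Of the rest, Actn2 alone averaged highest in K815R, and all others did so in WT or the K815Q-labelled group. The part of the difference in sums in the level of Cebpa was not tested. Fibroblast markers (8 genes) summed to 10990 to 12830 CPM. Markers of macrophages and monocytes (12 genes), which are myeloid cells, summed to 74.2 to 109 CPM. Markers of adipocytes (6 genes) and granulocytes (8 genes), other cells known for C/EBP-alpha, did not exceed 1.85 CPM in sum in any library. In such mixed cultures, fewer cells of a type and less RNA per cell cannot be told apart.

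The promoter windows of the members are shown because they differ in the elements they hold. RefSeq windows from 250 bases before to 50 after the gene start (rat assembly GRCr8) were used for 3 of the 4 members. These are Cebpa at chr1:96896334-96896633 (plus strand), Cebpb at chr3:176816755-176817054 (plus strand) and Cebpg at chr1:96829687-96829986 (minus strand), each written 5′ to 3′ with matches to the searched motifs in capitals.
Cebpa: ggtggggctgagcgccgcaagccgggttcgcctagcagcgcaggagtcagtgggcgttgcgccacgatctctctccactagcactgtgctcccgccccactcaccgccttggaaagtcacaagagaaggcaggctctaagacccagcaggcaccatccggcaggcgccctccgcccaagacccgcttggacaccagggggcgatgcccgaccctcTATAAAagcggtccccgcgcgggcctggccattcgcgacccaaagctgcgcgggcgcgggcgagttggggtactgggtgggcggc
Cebpb: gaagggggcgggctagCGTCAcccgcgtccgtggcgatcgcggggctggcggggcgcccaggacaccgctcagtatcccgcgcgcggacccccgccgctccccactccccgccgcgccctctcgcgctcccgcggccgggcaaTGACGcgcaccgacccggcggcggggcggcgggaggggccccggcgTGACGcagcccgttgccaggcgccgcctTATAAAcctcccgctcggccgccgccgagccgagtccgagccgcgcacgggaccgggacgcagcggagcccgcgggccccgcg
Cebpg: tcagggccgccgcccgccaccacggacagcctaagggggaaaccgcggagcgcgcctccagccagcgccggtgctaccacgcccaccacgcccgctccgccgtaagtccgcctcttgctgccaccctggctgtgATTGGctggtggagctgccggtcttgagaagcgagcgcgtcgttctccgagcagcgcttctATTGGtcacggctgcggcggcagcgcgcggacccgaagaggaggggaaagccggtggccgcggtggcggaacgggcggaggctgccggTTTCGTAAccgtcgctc
Both strands were searched for the C/EBP palindrome TTGCGCAA, a looser form TTNCGNAA that contains it, the cAMP response element TGACGTCA and the half-site TGACG within it, the ATF4 and C/EBP composite element TGATGCAA, the CCAAT box CCAAT and the TATA box TATAAA. The Cebpb window held 3 matches to TGACG, at -234, -107 and -61 from the gene start, where 21.2% of 33365 distinct rat windows of this length hold at least 1. Cebpa and Cebpb each held TATAAA, at -35 and -33, which 14.2% of windows hold. Cebpg had no TATAAA but 2 CCAAT boxes on the opposite strand, at -116 and -55 (37.5% of windows hold 1 or more), and a TTNCGNAA match at 33 bases past the start (2.51% of windows). TTGCGCAA, TGACGTCA and TGATGCAA were in none of the 3 windows, and 0.171%, 1.83% and 0.794% of all windows hold them. A match describes letters and is no evidence of binding. G and C made up 68.7% of the Cebpa window, 81% of the Cebpb window and 71% of the Cebpg window, against a median of 51.7% over all windows. On this assembly Cebpa and Cebpg lie on chromosome 1 with 1 annotated locus between them.

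Cebpa, the differentiation factor, stood highest in K815R. The K815R libraries held 8.91, 8.87 and 8.86 CPM, the LacZ libraries 5.28, 4.23 and 4.59, the WT libraries 4.92, 5.58 and 5.75, and the K815Q-labelled libraries 5.51, 5.33 and 5.94. Each K815R library lay above all others, and the K815Q-labelled libraries lay just above LacZ, while WT overlapped both. On the log2 scale K815R exceeded LacZ by 0.91 (SE 0.108), WT by 0.71 (SE 0.109) and the K815Q-labelled group by 0.67 (SE 0.109). These are the values for which the gene was noted. With single libraries omitted, the difference of K815R from LacZ ran from 0.85 to 1.01. WT and the K815Q-labelled group exceeded LacZ by 0.20 and 0.25 (SE 0.117 each).

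Cebpa rested on 95 to 225 reads per library, which alone gives a spread of 6.67% to 10.3%. The K815R libraries differed by 0.334% (coefficient of variation), less than counting would give, so their SD of 0.0297 CPM understates the error. The only comparison of Cebpa that used neither K815R nor LacZ set the K815Q-labelled group against WT. Its log2 fold change was 0.05 (95% interval -0.20 to 0.29, edgeR adjusted p = 0.901), and omitting single libraries moved it between -0.02 and 0.09.

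**Figure D1:**
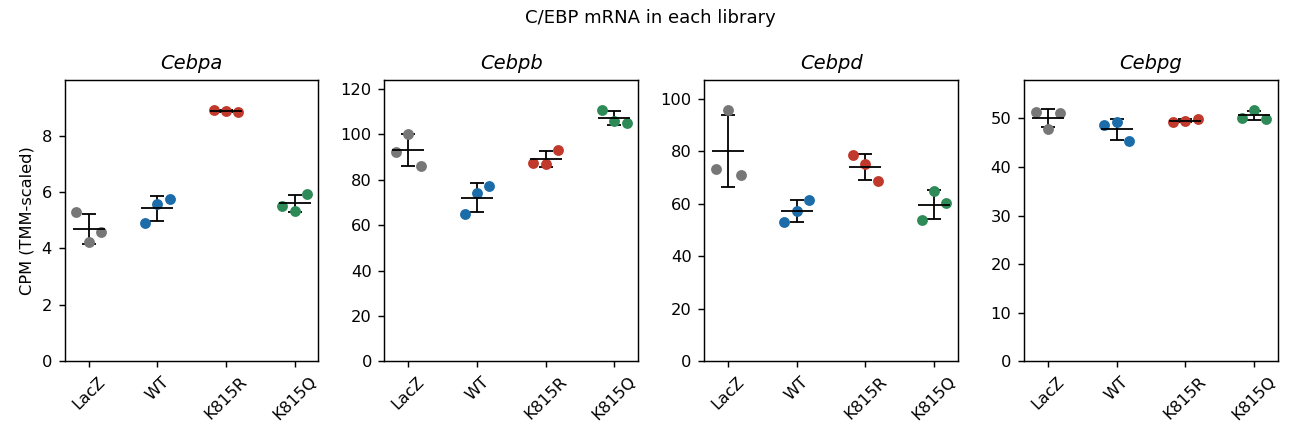
CPM (TMM-scaled, y axis from 0) of the 4 C/EBP genes in the 12 libraries, 1 point per library, with the group mean and SD as bars (n = 3). Cebpa is at 8.86 to 8.91 CPM in K815R and at most 5.94 elsewhere, Cebpb is lowest in WT and highest in the K815Q-labelled libraries, Cebpd is low in both of these groups, and Cebpg stays between 45.3 and 51.8.

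Cebpb, the cytokine- and stress-induced member, separated the groups differently. The LacZ libraries held 92.5, 100.2 and 86.1 CPM, WT 64.8, 74.3 and 77.1, K815R 87.5, 87.1 and 93.2, and the K815Q-labelled libraries 110.8, 106 and 104.9. All WT libraries were below every other library and all K815Q-labelled ones above, while LacZ and K815R overlapped.

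WT fell below LacZ, with a log2 fold change of -0.37 (SE 0.0632, edgeR adjusted p = 9.65e-04), a level 22.4% lower, where 3.39% of all tested genes were called lower. The K815Q-labelled group rose above WT by 0.57 (SE 0.0633, edgeR adjusted p = 4.09e-05), or 1.49-fold, where 0.718% of genes were called higher. Of the 101 genes called higher in that comparison, Cebpb ranked 2 by p-value and 24 by size of change. Both calls held whichever of the compared libraries was omitted. K815R rose above WT by 0.31 (SE 0.0634, edgeR adjusted p = 0.0112), against 1.32% of genes called higher. That call was lost without WT replicate 1 (0.24, adjusted p = 0.08) and without K815R replicate 3 (0.28, adjusted p = 0.0597). The rise of the K815Q-labelled group over LacZ was 0.21 (SE 0.0621, edgeR adjusted p = 0.0429), against 2.87% of genes called higher, and it was kept in 1 of 6 omissions, that of LacZ replicate 2.

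K815R and the K815Q-labelled group did not overlap for Cebpb, yet their difference was not called (log2 fold change -0.26, 95% interval -0.39 to -0.14, edgeR adjusted p = 0.0626). DESeq2 called it (adjusted p = 0.032). K815R differed from LacZ by -0.06 (SE 0.0622), a comparison left untested in all members because Cebpa was noted in it. Ordered by mean, Cebpb went from WT (72.1 ± 6.45 CPM) through K815R (89.3 ± 3.44) and LacZ (92.9 ± 7.05) to the K815Q-labelled group (107 ± 3.13; SD, n = 3 each), and the middle pair lay within its spread.

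Cebpd, the other inflammatory member, was low in both WT and the K815Q-labelled group. The LacZ libraries held 73.4, 95.9 and 71.1 CPM, WT 53.0, 57.4 and 61.5, K815R 78.5, 75.0 and 68.8, and the K815Q-labelled libraries 53.8, 65.1 and 60.3. Each WT and K815Q-labelled library was below each LacZ and K815R library, and LacZ replicate 2 stood above all others.

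WT fell below LacZ with a log2 difference of -0.48 (SE 0.113, edgeR adjusted p = 0.0311), a level 28.4% lower. The K815Q-labelled group fell below LacZ with one of -0.42 (SE 0.113, edgeR adjusted p = 0.0448), where 4.98% of genes were called lower. These 2 comparisons share the LacZ libraries. Without LacZ replicate 2 the first was -0.34 and still called (adjusted p = 0.0192), and the second was -0.27 and not called (adjusted p = 0.0561). The first call was lost on omitting any WT library (adjusted p from 0.0514 to 0.116) and when the 6 libraries were fitted alone (adjusted p = 0.0788). The second was lost without K815Q replicate 1 (adjusted p = 0.166) or 3 (adjusted p = 0.105) and when its 6 libraries were fitted alone (adjusted p = 0.112).

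K815R stood above WT by 0.37 (95% interval 0.12 to 0.62) and above the K815Q-labelled group by 0.31 (0.06 to 0.56) for Cebpd, without overlap. Neither was called by edgeR (adjusted p = 0.148 and 0.329). The first was called by DESeq2 (adjusted p = 0.0146) and when its 6 libraries were fitted alone (adjusted p = 0.00755). WT and the K815Q-labelled group differed by 0.06 (95% interval -0.19 to 0.31, edgeR adjusted p = 0.861). K815R overlapped LacZ (-0.11, SE 0.111), and without LacZ replicate 2 that value was 0.04.

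Cebpg, the partner of ATF4, varied least of the 4 relative to its level. Its libraries lay from 47.9 to 51.2 CPM in LacZ, from 45.3 to 49.4 in WT, from 49.3 to 49.9 in K815R, and from 49.9 to 51.8 in the K815Q-labelled group. None of its 5 tested differences was called by edgeR (adjusted p from 0.51 to 0.905), and DESeq2 called none either. The widest was 0.08 for the K815Q-labelled group over WT (95% interval -0.03 to 0.20). In K815R against LacZ, where its neighbour Cebpa was noted, Cebpg differed by -0.02 (SE 0.0537).

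Over the members, 16 differences were tested and 6 called, 4 of Cebpb and 2 of Cebpd. In WT against LacZ, 2 of 3 tested members were called, both lower, where 5.34% of all genes were called and 1.95% called higher. The K815Q-labelled group differed from LacZ in 2 of 3, with Cebpb higher and Cebpd lower, against 7.85% of all genes. K815R differed from WT in 1 of 3, where 2.2% of all genes were called and 0.882% called lower. In K815Q-labelled against WT, 1 of 4 was called, against 1.07% of all genes and 0.356% called lower. None of 3 was called by edgeR between K815R and the K815Q-labelled group, where 0.363% of all genes were called, 0.213% higher and 0.149% lower, and DESeq2 called 1. In K815R against LacZ, which chose Cebpa, 2.47% of all genes were called, 0.74% higher and 1.74% lower.

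Groups that do not overlap were common in the whole table. The counts for K815R include Cebpa, whose K815R values chose it, so nothing is read from that member in them. In WT against LacZ 2 of 4 members did not overlap, both lower, as did 24.6% of all genes, 12.3% in each direction. In K815R against LacZ 1 did, Cebpa, with 18.7% of all genes (9.11% higher, 9.6% lower). Between the K815Q-labelled group and LacZ 3 did, 2 higher and 1 lower, with 28.4% of all genes (13.9% higher, 14.5% lower). Cebpa was among the higher ones, and as the choice also used its LacZ values, nothing is read from it there either. K815R and WT were apart in 3 members, all higher, with 19% of all genes (9.49% higher, 9.48% lower). K815Q-labelled libraries and WT were apart in 2, both higher, with 19.3% (9% higher, 10.3% lower). K815R and K815Q-labelled libraries were apart in all 4, 2 higher and 2 lower, with 16% (8.28% higher, 7.69% lower).

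**Figure D2:**
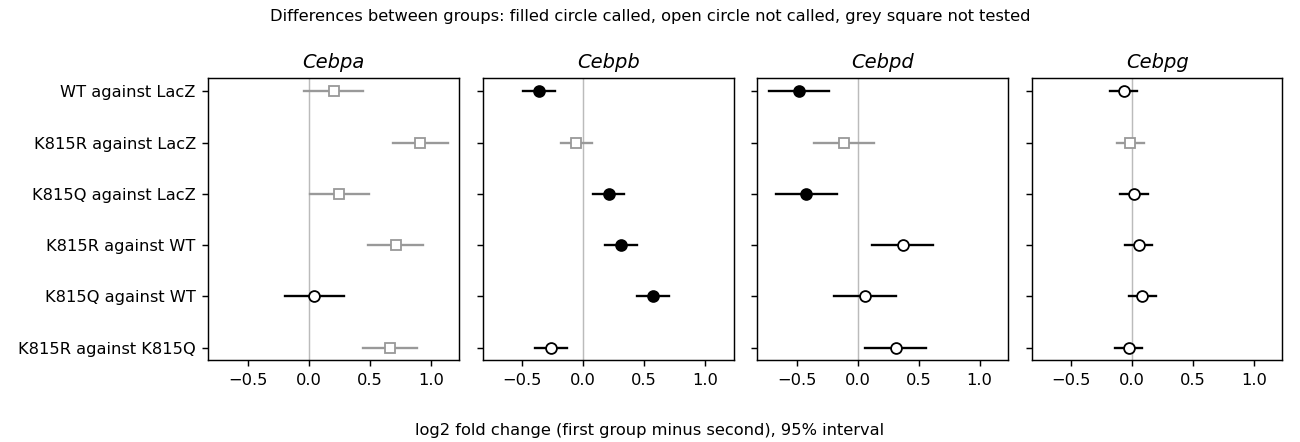
Log2 fold change with its 95% interval (x axis) for each C/EBP gene in the 6 comparisons (y axis), where filled circles were called, open circles were not, and grey squares were not tested because the choice of genes used them. Cebpb has filled circles on both sides of 0, from -0.37 for WT against LacZ to 0.57 for K815Q-labelled against WT, and all Cebpg points lie near 0.

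Cebpb and Cebpd share many inducers, and their ratio within a library needs no scaling between libraries. Reads of Cebpb per read of Cebpd numbered 1.26, 1.04 and 1.21 in LacZ libraries, 1.22, 1.29 and 1.25 in WT ones, 1.11, 1.16 and 1.36 in K815R ones, and 2.06, 1.63 and 1.74 in K815Q-labelled ones. Each K815Q-labelled ratio was above all others, and the remaining 3 groups overlapped. On the log2 scale the K815Q-labelled ratio exceeded that of LacZ by 0.62 and that of WT by 0.52, and K815R against it gave -0.58. Each had a two-sided exact permutation p of 0.1, the smallest that 3 libraries against 3 allow. WT overlapped LacZ (log2 difference 0.11, exact permutation p = 0.3).

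**Figure D3:**
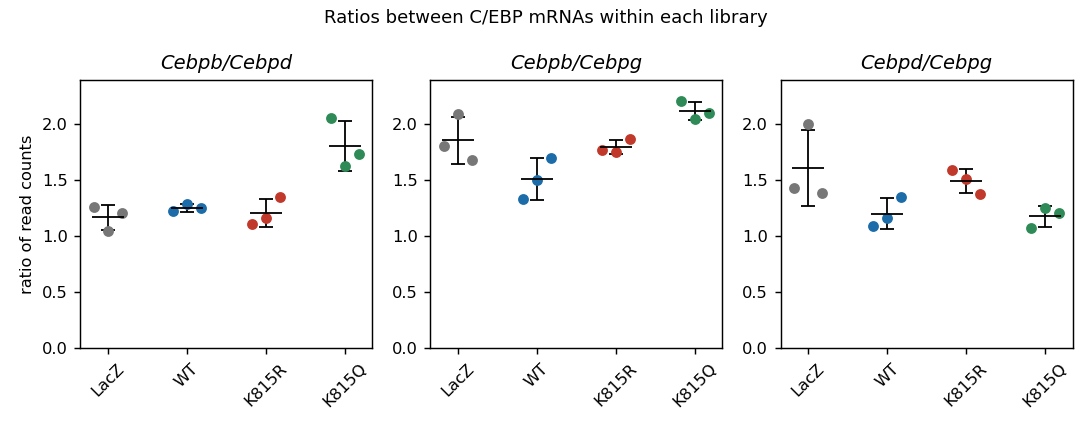
Ratios of read counts between pairs of C/EBP genes in each library (y axis from 0), 1 point per library, with group mean and SD as bars (n = 3). The Cebpb to Cebpd ratio is 1.63 to 2.06 in the K815Q-labelled libraries and 1.04 to 1.36 in the other groups.

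Across the 12 libraries the members followed each other weakly or not at all. Pearson's r of log2 CPM was 0.44 between Cebpb and Cebpg, 0.28 between Cebpb and Cebpd, 0.10 between Cebpa and Cebpd, and within 0.02 of 0 for the other pairs. These values describe 12 libraries that share groups and have no test.

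Other genes named for the family were not called in any comparison. Cebpe, a myeloid member, had 1 to 10 reads per library and did not pass the filter. Ddit3 encodes CHOP, an inhibitory partner of the family that rises in endoplasmic reticulum stress, and ranged from 54.1 to 64.7 CPM in LacZ, 56.0 to 59.7 in WT, 48.6 to 56.0 in K815R and 47.8 to 56.2 in the K815Q-labelled group. Its log2 fold changes in the 6 comparisons lay from -0.20 to -0.02. Cebpz, which carries the family name but encodes a protein of another kind, ranged from 53.5 to 66.8 CPM.

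Among 17 tested partners and related leucine zipper factors, Atf4 alone was called in any comparison, 1 of 17 in the K815Q-labelled group against LacZ, near the 7.85% called over all genes there. It ranged from 232 to 250 CPM in LacZ, 256 to 273 in WT, 252 to 266 in K815R and 270 to 292 in the K815Q-labelled group. The latter rose above LacZ by 0.23 (SE 0.0492, edgeR adjusted p = 0.0055), a call lost without K815Q replicate 1. WT exceeded LacZ by 0.15 and was not called (adjusted p = 0.0877), although it did not overlap LacZ either.

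Of 18 tested modifiers of C/EBP proteins, 7 were called in the K815Q-labelled group against LacZ, where 7.85% of all genes were called. In the other comparisons edgeR called none of them, where 0.363% to 5.34% of all genes were called. Trib3 and Trib2 were higher, and those lower included Gsk3b, Cdk2 and Celf1. Tribbles proteins act as adaptors, and TRIB2 is known to steer C/EBP-alpha to degradation. Trib3 rose by 0.45 (SE 0.0803, edgeR adjusted p = 0.00113), whichever library was omitted. Trib2 rose by 0.19 (SE 0.0574, adjusted p = 0.0393), a call kept in 2 of 6 omissions, while Trib1 averaged 24.7 CPM in LacZ and 24.9 in the K815Q-labelled group. Gsk3b and Cdk2, kinases that phosphorylate C/EBP proteins, changed by -0.26 and -0.20 and kept the call in 2 of 6 omissions. Celf1, an RNA-binding protein gene, changed by -0.21 and kept it in 1, and Cdk2 and Celf1 also lost it with their 6 libraries fitted alone.

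The signals that induce C/EBP-beta and C/EBP-delta were covered by 18 tested genes, whose median log2 fold change lay between -0.08 and 0.04 in the 6 comparisons. Against LacZ, edgeR called 1 higher and 2 lower both in WT (5.34% of all genes called) and in the K815Q-labelled group (7.85%). K815R had 1 higher against WT (2.2%) and 1 against the K815Q-labelled group (0.363%). Osmr, the receptor for oncostatin M, a cytokine of the interleukin 6 family, was called in 4 of the 6 comparisons. The LacZ libraries held 55.5, 52.6 and 57.3 CPM, WT 38.8, 38.0 and 40.4, K815R 50.8, 58.6 and 51.2, and the K815Q-labelled libraries 42.2, 47.0 and 40.4. As for Cebpd, each WT and K815Q-labelled library was below each LacZ and K815R library. Against LacZ, Osmr fell in WT (log2 fold change -0.50, SE 0.0667, edgeR adjusted p = 6.6e-05) and in the K815Q-labelled group (-0.35, SE 0.0664, adjusted p = 0.00193). It rose in K815R against WT (0.46, SE 0.067, adjusted p = 5.96e-04). These 3 calls held whichever library was omitted. The rise in K815R over the K815Q-labelled group (0.31, adjusted p = 0.0368) held in 2 of 6 omissions and was lost with its 6 libraries fitted alone.

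Il6st, the shared receptor chain of these cytokines, fell in the K815Q-labelled group against LacZ (-0.31, edgeR adjusted p = 0.048), kept in 2 of 6 omissions. Il1r1, the interleukin 1 receptor, fell in WT (-0.27, adjusted p = 0.0236), kept in 1 of 6. Tsc22d3, a glucocorticoid-induced gene, rose against LacZ by 0.31 in WT (kept in 3 of 6) and by 0.27 in the K815Q-labelled group (kept in 4 of 6).

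Of 18 tested acute phase and inflammatory genes, which C/EBP-beta and C/EBP-delta are known to drive, 5 were lower and 1 higher in WT than LacZ, where 3.39% of all genes were called lower and 1.95% higher. The list's median was -0.22, against 0.01 over all tested genes. In the K815Q-labelled group 3 were lower (median -0.16), against 4.98% of all genes. In K815R 1 was, Steap4, a metalloreductase (median -0.11), against 1.74%. Steap4 fell by -0.43 there (adjusted p = 0.0162, kept in 3 of 6 omissions) and by -0.41 in the K815Q-labelled group (adjusted p = 0.0126, kept in 4 of 6). Ptx3, a secreted pattern recognition protein, stood at 15.9, 23.7 and 15.2 CPM in the LacZ libraries and at 9.28, 9.04 and 8.55 in WT. K815R held 16.1, 15.1 and 15.7 CPM and the K815Q-labelled libraries 13.2, 14.0 and 13.6, so that WT alone lay below every other group. It fell in WT against LacZ (-1.02, SE 0.134, edgeR adjusted p = 2.08e-04) and rose in K815R against WT (0.80, SE 0.137, adjusted p = 0.00586). Both calls held whichever library was omitted, and the rise of the K815Q-labelled group over WT (0.60, adjusted p = 0.0498) held in none.

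C3, the central complement component, stood at 18.1, 27.0 and 19.2 CPM in LacZ libraries, 13.1, 13.4 and 15.6 in WT ones, 19.5, 20.6 and 18.1 in K815R ones, and 12.7, 15.1 and 11.6 in K815Q-labelled ones. Against LacZ it fell in WT (-0.61, edgeR adjusted p = 0.0265, kept in 4 of 6 omissions) and in the K815Q-labelled group (-0.70, adjusted p = 0.0117, kept in 5 of 6), and both calls were lost when 6 libraries were fitted alone. Lcn2, an iron-scavenging lipocalin, fell in the K815Q-labelled group (-0.95, adjusted p = 0.0291, kept in 3 of 6), a call also lost with its 6 libraries fitted alone. Mt2A, a metallothionein, fell in WT (-0.48, adjusted p = 0.00246) whichever library was omitted. Ccl2, a monocyte-attracting chemokine, went the other way. It rose in WT over LacZ (0.35, adjusted p = 0.0151, kept in 2 of 6) and was lower in K815R than WT (-0.46, adjusted p = 0.00764, kept in 5 of 6).

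LacZ replicate 2 had the highest Cebpd, Ptx3, C3, Lcn2 and Hmox1 of the 12 libraries. Interferon-stimulated genes (10, summed) ranged from 290 to 520 CPM in LacZ, from 52.1 to 102 in WT, from 88.7 to 132 in K815R and from 46.4 to 60.9 in the K815Q-labelled group. The part of that difference in the levels of Cebpd and the inflammatory genes was not tested.

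Of 22 tested stress genes that ATF4 drives, some with C/EBP-gamma, 5 were higher in WT than LacZ and none lower (median 0.10), where 1.95% of all genes were called higher. They were Slc7a11, Chac1, Aldh1l2, Phgdh and Herpud1. Slc7a11, the cystine importer, stood at 9.30, 8.07 and 9.18 CPM in LacZ libraries, 14.25, 13.0 and 11.7 in WT ones, 8.76, 6.98 and 8.90 in K815R ones, and 8.73, 10.8 and 8.44 in K815Q-labelled ones. WT lay above every other library. It rose over LacZ (0.55, SE 0.112, edgeR adjusted p = 0.00392), and K815R was lower than WT (-0.67, SE 0.114, adjusted p = 0.00248), both whichever library was omitted. Aldh1l2, a mitochondrial folate enzyme, rose in WT by 0.31 (adjusted p = 0.00482), also in every omission. Phgdh, the first enzyme of serine synthesis, rose over LacZ by 0.29 in WT and in the K815Q-labelled group (adjusted p = 0.00688 and 0.00631), each kept in 4 of 6 omissions. In K815R against LacZ none of the 22 was called by edgeR (median 0.01), near the 2.47% called over all genes.

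**Figure D4:**
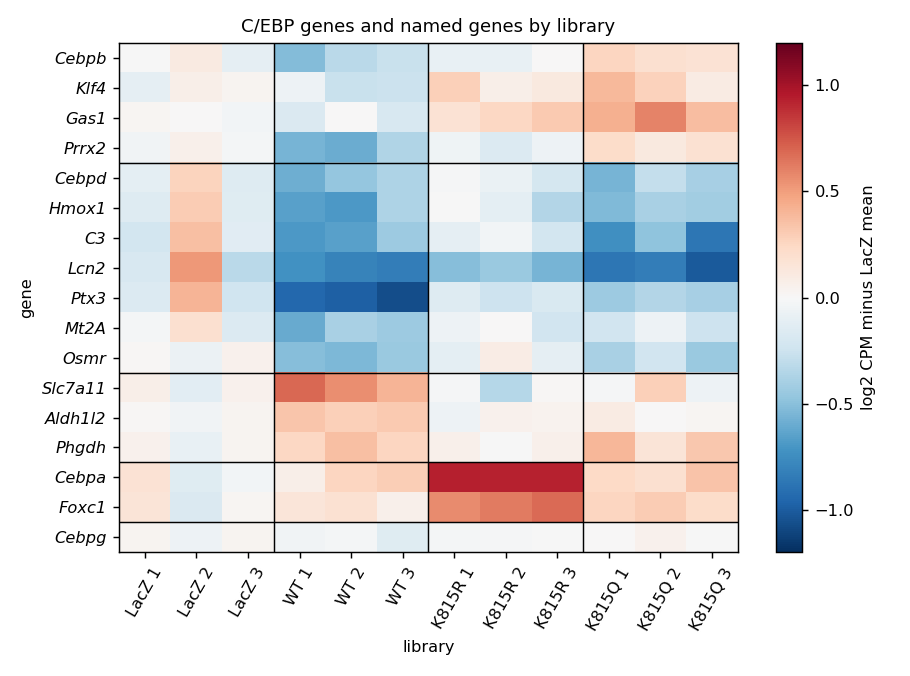
Log2 CPM of the 4 C/EBP genes and 13 named genes (rows) in the 12 libraries (columns), minus the LacZ mean (colour, blue lower and red higher). The rows from Cebpd to Osmr are blue in WT and mostly so in the K815Q-labelled libraries, with Lcn2 blue in K815R as well. Hmox1 was picked for likeness to Cebpd and the rows below it for a call, so their shared colour follows partly from the choice. Ccl2, called higher in WT than LacZ, and Steap4, called lower than LacZ in K815R and the K815Q-labelled group, are not shown. Cebpa and Foxc1, which was picked for likeness to Cebpa, are darkest red in K815R.

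The fat cell programme, which C/EBP-alpha drives with PPAR-gamma, was covered by 15 tested genes. In K815R against LacZ edgeR called none of them (median -0.01), near the 2.47% called over all genes. Pparg averaged 1.33 CPM in LacZ and 1.32 in K815R. Klf4, an early factor of that programme, was the only gene of the list called, 1 of 15 in each comparison that follows. It was higher than WT in K815R (0.35, edgeR adjusted p = 0.024, kept in 2 of 6 omissions), where 2.2% of all genes were called. Klf4 was also higher than WT in the K815Q-labelled group (0.45, adjusted p = 0.00517, kept in 6 of 6), where 1.07% were. The K815Q-labelled group was higher than LacZ (0.26, adjusted p = 0.0453, kept in 1 of 6), near the 7.85% called over all genes there.

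Of 18 tested genes tied to C/EBP-beta in heart growth and the epicardium, edgeR called 2 higher in K815R against LacZ (Cited4 and Hand2, where 0.74% of all genes were called higher) and 3 in the K815Q-labelled group (Tcf21, Igf1 and Gata6, where 2.87% were). Between WT, K815R and the K815Q-labelled group it called none, near the 0.363% to 2.2% called over all genes. Cited4, a coactivator described as rising when C/EBP-beta falls, ranged from 75.9 to 88.7 CPM in LacZ, 92.0 to 100.2 in WT, 96.0 to 98.9 in K815R and 92.3 to 97.1 in the K815Q-labelled group. It was above LacZ without overlap in all 3, by 0.18, 0.21 and 0.17. The Cited4 difference was called in K815R alone (edgeR adjusted p = 0.0427, against 0.0671 in WT and 0.0704 in the K815Q-labelled group). Cebpb mRNA was lower than LacZ in WT and higher in the K815Q-labelled group. These data hold mRNA and no C/EBP-beta protein, and a link between the 2 genes was not tested. The Cited4 call in K815R was kept in 1 of 6 omissions. It was lost with its 6 libraries fitted alone and in a fit without the K815Q-labelled group. Tcf21 (0.53, adjusted p = 0.00236) and Igf1 (0.45, adjusted p = 0.00673) rose over LacZ in the K815Q-labelled group whichever library was omitted.

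Of 11 tested growth arrest genes, edgeR called 1 higher and 1 lower in WT against LacZ, where 5.34% of all genes were called. In K815R against LacZ 1 was higher (2.47% of all genes called), and in the K815Q-labelled group 2 were higher and 1 lower (7.85%). Against WT, 2 were higher in K815R (2.2%) and 2 in the K815Q-labelled group (1.07%). In K815R against the K815Q-labelled group 1 was lower (0.363%). The list's median log2 fold change lay between -0.06 and 0.06. Cdkn1a, among these genes, encodes p21, an inhibitor of division that C/EBP-alpha protein is known to stabilise. It ranged from 177 to 203 CPM in LacZ, 135 to 159 in WT, 163 to 173 in K815R and 132 to 156 in the K815Q-labelled group. Against LacZ it fell in WT (-0.36, edgeR adjusted p = 0.00235) and in the K815Q-labelled group (-0.37, adjusted p = 0.00207), whichever library was omitted, and K815R was not called (-0.15, adjusted p = 0.299). Gas1, a growth arrest gene, stood at 27.3, 26.9 and 26.2 CPM in LacZ libraries, 23.7, 26.8 and 23.4 in WT ones, 30.2, 31.9 and 33.3 in K815R ones, and 35.9, 40.4 and 34.7 in K815Q-labelled ones. The K815Q-labelled group rose over WT (0.59, SE 0.0722, adjusted p = 1.27e-04) and over LacZ (0.47, adjusted p = 2.19e-04), both in every omission. K815R rose over WT (0.37, adjusted p = 0.00815, kept in 5 of 6). Myc, which opposes C/EBP-alpha in differentiation, rose over LacZ by 0.28 in WT, 0.30 in K815R and 0.33 in the K815Q-labelled group, kept in 2, 3 and 5 of 6 omissions. Of the cell cycle inhibitors, Cdkn1c rose in K815R over WT (0.33, adjusted p = 0.0226, kept in 2 of 6). Cdkn2b rose in the K815Q-labelled group over WT (0.42, adjusted p = 0.018, kept in 3 of 6) and was lower in K815R than in that group (-0.40, adjusted p = 0.0463, kept in none).

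The genes most like each member were found by Pearson's r of log2 CPM over the 12 libraries, among 10260 tested genes with a symbol and at least 5 CPM on average. For Cebpa the closest was Foxc1, a forkhead factor of mesenchyme and vessels, with r = 0.944. It stood at 8.5, 8.83 and 9.17 CPM in K815R libraries and at 5.08 to 7.06 CPM elsewhere. As deviations from group means, r was 0.472. The next were AABR07025386.1, Ptma, Npr1 and LOC498231 (r from 0.85 to 0.862), with r from 0.0653 to 0.399 as deviations from group means. Npr1, the receptor for natriuretic peptides, averaged 10.3 CPM in LacZ and 14.0 in K815R. All these genes were picked for likeness to Cebpa over libraries that include K815R. Their high K815R level therefore follows from the choice and is no separate result.

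For Cebpb the closest was Prrx2, a homeobox gene of mesenchymal cells, with r = 0.952. It stood at 7.96, 8.56 and 8.07 CPM in LacZ libraries, 5.58, 5.43 and 6.37 in WT ones, 7.88, 7.33 and 7.86 in K815R ones, and 9.565, 8.89 and 9.33 in K815Q-labelled ones. Tcf3, Numbl, Plpp1 and Efemp2 followed (r from 0.909 to 0.948). As deviations from group means these 5 genes gave r from 0.375 to 0.722. The 8 fibroblast markers summed to 11840 to 12710 CPM in LacZ, 10990 to 12030 in WT, 11090 to 11530 in K815R and 11930 to 12830 in the K815Q-labelled group. Pdgfra among them was lower in WT than LacZ (-0.36, edgeR adjusted p = 0.00109). It was higher than WT in K815R (0.54) and in the K815Q-labelled group (0.30). Postn was higher than LacZ in WT (0.35, adjusted p = 0.00104) and was also called higher than LacZ in the K815Q-labelled group. In K815R against WT Postn was called lower, opposite to Pdgfra. No other fibroblast marker was called in any comparison. Macrophage markers summed to 74.2 to 95.4 CPM in LacZ, 95.9 to 101 in WT, 97.6 to 106 in K815R and 102 to 109 in the K815Q-labelled group. Lyz2 among them was called higher than LacZ in WT, K815R and the K815Q-labelled group. In the last, Spi1 was also called higher than LacZ and Adgre1 lower. No other macrophage marker was called in any comparison. The part of these cells in the levels of Cebpa and Cebpb was not tested.

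For Cebpd the closest was Hmox1, the stress-induced enzyme that breaks down heme, with r = 0.967. It stood at 184, 253 and 186 CPM in LacZ libraries, 131, 127 and 159 in WT ones, 205, 189 and 162 in K815R ones, and 142, 157 and 153 in K815Q-labelled ones. Ndrg1, C3, Abca4 and P4ha1 came next (r from 0.927 to 0.955). As deviations from group means these 5 gave r from 0.79 to 0.932, and without LacZ replicate 2 the r of Hmox1 was 0.942. For Cebpg the closest was Sfpq, an RNA-binding splicing factor, with r = 0.886. Leaving out WT replicate 3, the lowest Cebpg library, lowered the r of its 5 closest genes to between 0.668 and 0.812.

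**Figure D5:**
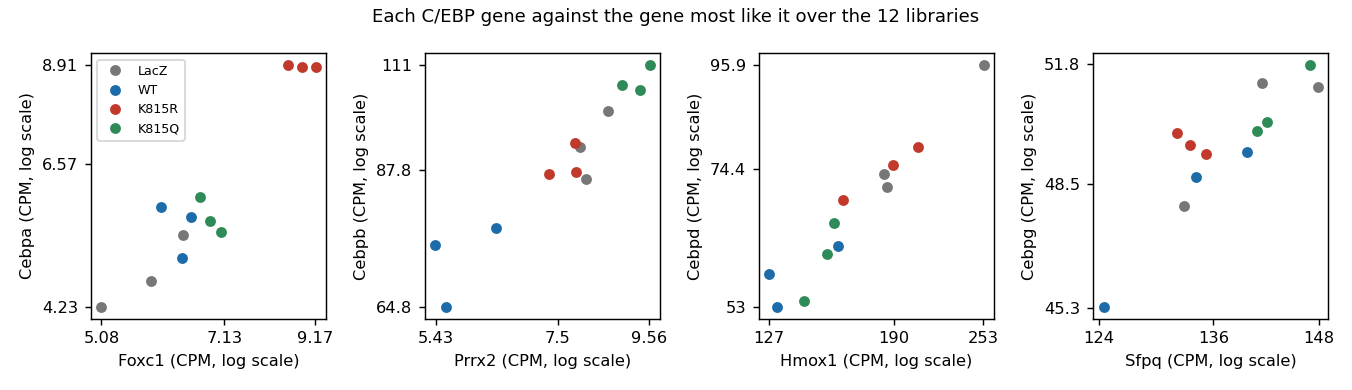
CPM of each C/EBP gene (y axis) against the gene with the highest Pearson's r to it (x axis), both on log scales, 1 point per library coloured by group. In the Cebpa panel the K815R points stand apart, which follows from how Cebpa and its likest gene were chosen. In the Cebpd panel the points form a line with LacZ replicate 2 at its top.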

How the data were processed

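Poly(A) RNA of 12 libraries (4 groups of 3, grouped by their labels) was measured. The authors deposited raw read counts per Ensembl gene. The submitters' processing notes name Trimmomatic 0.39, HISAT2 2.2.1, HTSeq 0.6.1, edgeR and the build Rnor_6.0; strand setting and annotation are not given in the sources used here. The 5 lines that name no gene held 40.7% to 43.3% of reads and were left out.

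Counts were scaled by TMM, filtered with filterByExpr (minimum count 10, total 15) and tested with edgeR 4.0.16 (R 4.3.3), quasi-likelihood, robust, on 4 group means fitted jointly to the 12 libraries (8 residual degrees of freedom), with Benjamini-Hochberg adjustment over 14063 genes. Log2 CPM used a prior count of 2. A count of 3 is 0.118 to 0.156 CPM. Replicates differed beyond sampling noise (chi-square per degree of freedom 4.65 to 9.11).

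The members and lists were chosen with earlier results of these data known. Besides the members, genes were named by rule: Kat6a, Ddit3, Cebpe, Cebpz, Atf4, Trib1, Trib2, Pparg and Cited4, per list and comparison up to 4 called genes of largest change at a mean of at least 1 CPM, and the 5 genes most like each member. Pdgfra, Postn, Herpud1 in WT and the interferon genes were named after their values were seen. Not every called modifier of C/EBP proteins is reported here by name. Alternatives were other scaling (RLE, upper quartile), filters (none, or 10 counts in each library), DESeq2 1.42.0, a replicate term, fits of 6 libraries, single libraries omitted and, added after seeing the data, a fit without the K815Q-labelled group.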

Additional observations from a re-analysis of the deposited data

How the results depend on the processing

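Every called difference of a member kept its direction under the alternatives run. Omitting single libraries moved Cebpb in WT against LacZ from -0.42 to -0.30, in K815Q-labelled against WT from 0.50 to 0.62, in K815R against WT from 0.24 to 0.36 and in K815Q-labelled against LacZ from 0.155 to 0.26. It moved Cebpd in WT against LacZ from -0.56 to -0.34 and in K815Q-labelled against LacZ from -0.50 to -0.27. Cebpb in K815R against K815Q-labelled was called with no filter (-0.26, adjusted p = 0.00151), with DESeq2 (-0.26) and with its 6 libraries alone (-0.27, adjusted p = 0.0273). Cebpd in K815R against WT was called with DESeq2 (0.37) and with its 6 libraries alone (0.37). Its calls against LacZ were lost with 6 libraries alone (-0.48 in WT, -0.42 in K815Q-labelled), the latter also with no filter (-0.43, adjusted p = 0.0669). The cause was not tested. Some differences near 0 that were not called or not tested changed sign on omitting a library: Cebpa and Cebpd in K815Q-labelled against WT, Cebpd and Cebpg in K815R against LacZ, and Cebpg in K815Q-labelled against LacZ.

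Counts of genes called over the whole table moved more. With no filter they were 600 in K815R against LacZ (348 as reported), 553 in K815R against WT (309), 423 in K815Q-labelled against WT (151) and 307 in K815R against K815Q-labelled (51). The last was 105 with DESeq2 and 85 with 6 libraries alone. Omitting single libraries gave 378 (without LacZ replicate 2) to 639 in WT against LacZ (751), 173 to 308 in K815R against LacZ, 360 (without K815Q replicate 1) to 1182 in K815Q-labelled against LacZ (1104), 124 to 177 in K815R against WT, 50 to 146 in K815Q-labelled against WT and 11 to 98 in K815R against K815Q-labelled. With the replicate number as a block the counts were 232 in K815Q-labelled against WT and 86 in K815R against K815Q-labelled, and no member's call changed. Same-numbered libraries deviated together weakly at most (1 of 18 correlations over 0.1, from -0.127 to 0.122). Between WT, K815R and the K815Q-labelled group these correlations were all positive, and with LacZ they were mostly negative. The main fit took the number as a name only, which these values do not settle.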
